A study of Mus musculus with 10 samples.

Results

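The SLC25 family is the set of solute carriers that move metabolites, nucleotides, cofactors and ions across the inner mitochondrial membrane. Its genes were taken as all rows of the deposited count table whose symbol starts with Slc25a and a digit and whose total over the 6 RNA libraries was at least 60. The rule gave 41 of 24385 gene symbols, out of 47 rows with such a symbol, and all 41 passed the filter on low counts that left 13075 genes in the test. They lie on 18 chromosomes. The lowest total inside the rule was 132 counts (Slc25a34) and the highest outside it was 17 (Slc25a2). The other rows outside it were Slc25a31 with 3 counts, Slc25a54 with 2, and Slc25a21, Slc25a41 and Slc25a48 with none, so that nothing is said of these 6 genes here.

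The carriers were compared in bone marrow-derived dendritic cells, antigen-presenting cells raised in culture from marrow, of wild-type female C57BL/6 mice aged 8 to 10 weeks. Marrow was cultured for 7 days in medium with 20 ng/mL of the growth factor GM-CSF, and non-adherent cells collected on day 6 received for 24 h either AMLE, an apple mango leaf extract, at 400 µg/mL (3 RNA and 2 ATAC libraries) or the vehicle DMSO at 0.04% (3 RNA and 2 ATAC libraries). ATAC sequencing maps open chromatin by transposase insertion. The labels do not say whether the replicates are different mice or different cultures. The p-values therefore speak only of the spread between libraries, which may be technical, and the cells are a mixed culture rather than a sorted population.

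Carriers of this family share a fold built from a repeated membrane-spanning unit. Most work as exchangers, taking one solute in for another going out, and so tie the cytosol to oxidative phosphorylation, the citric acid cycle, the urea cycle, fatty acid oxidation, haem synthesis and mitochondrial DNA upkeep. They are made in the cytosol and reach the inner membrane through a dedicated import route. Activated dendritic cells are known to change how they use citrate, arginine and oxidative phosphorylation.

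Total counts per RNA library were 26010455 to 34208286 in AMLE and 28457863 to 31413578 in DMSO. Among markers of dendritic cells, 5 of 12 rose and 1 fell, and their summed level was 8026 to 9103 CPM (counts scaled to each library's effective total) in AMLE against 6740 to 10111 CPM in DMSO. Markers of other cells were also counted. Over all 13075 genes tested, 23% were called higher and 25.6% lower, and no marker list was tested against these shares. Neutrophil and precursor genes (7 of 11 lower, 1 higher) summed to 10000.0 to 13418 CPM in AMLE against 14067 to 22279 CPM in DMSO, macrophage genes (6 of 8 tested lower, 1 higher) to 219 to 249 against 406 to 627 CPM, and monocyte genes (3 of 5 lower) to 684 to 1422 against 2041 to 2217 CPM. Mast cell and basophil genes (3 of 6 tested higher) summed to 307 to 635 CPM in AMLE against 179 to 319 CPM in DMSO, and eosinophil genes (2 of 6 higher) to 1780 to 2343 against 1297 to 1988 CPM. Lymphocyte genes (1 of 5 tested lower) stood at 20.1 to 29.5 CPM in AMLE against 20.7 to 29.7 CPM in DMSO, stromal genes (1 of 1 tested lower) at 0.642 to 0.764 against 0.948 to 1.02 CPM, and erythroid genes (1 of 3 tested higher) at 1.34 to 2.16 against 1.08 to 1.38 CPM, with Hba-a1, Hba-a2, Hbb-bs and Hbb-bt at 0 in every library. All 8 proliferation genes examined were lower, summing to 384 to 521 CPM in AMLE against 1495 to 1682 CPM in DMSO. The summed ranges of AMLE and DMSO overlapped for the dendritic cell, mast cell and basophil, eosinophil, lymphocyte and erythroid genes. Each sum is led by its most abundant genes and can hide larger changes. S100a8 and S100a9, not called, led the neutrophil sum, while after AMLE Elane was 24.7-fold lower and Cxcr2 2.26-fold higher. Adgre1, called higher, led the macrophage sum on average, while C1qa was 31.8-fold lower. Cd74, not called, led the dendritic cell sum, while Flt3 was 4.81-fold higher and H2-Ab1 1.62-fold lower. The part of these differences in the carrier results was not tested. In bulk RNA fewer cells of a type cannot be told apart from less RNA per cell.

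The family did not move in one direction. In the edgeR quasi-likelihood test with Benjamini-Hochberg adjustment over all 13075 genes, 5 of 41 carriers (12.2%) were higher after AMLE and 10 (24.4%) were lower at an adjusted p under 0.05, while 26 were not called. Over all genes tested 23% were higher and 25.6% were lower, so the share of carriers that fell lay near this background and the share that rose lay below it, a difference that was not tested. The 2 groups of libraries did not overlap for 15 carriers (36.6%), against 59.7% of all genes tested. Log2 fold changes, AMLE over DMSO, ran from −0.81 for Slc25a5 to 1.69 for Slc25a29, with a median of 0.00 against −0.01 over all genes. Without both libraries numbered 3, the pair in which AMLE replicate 3 stood nearest to DMSO, 8 carriers were higher, with Slc25a1, Slc25a10 and Slc25a34 added.

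**Figure D1:**
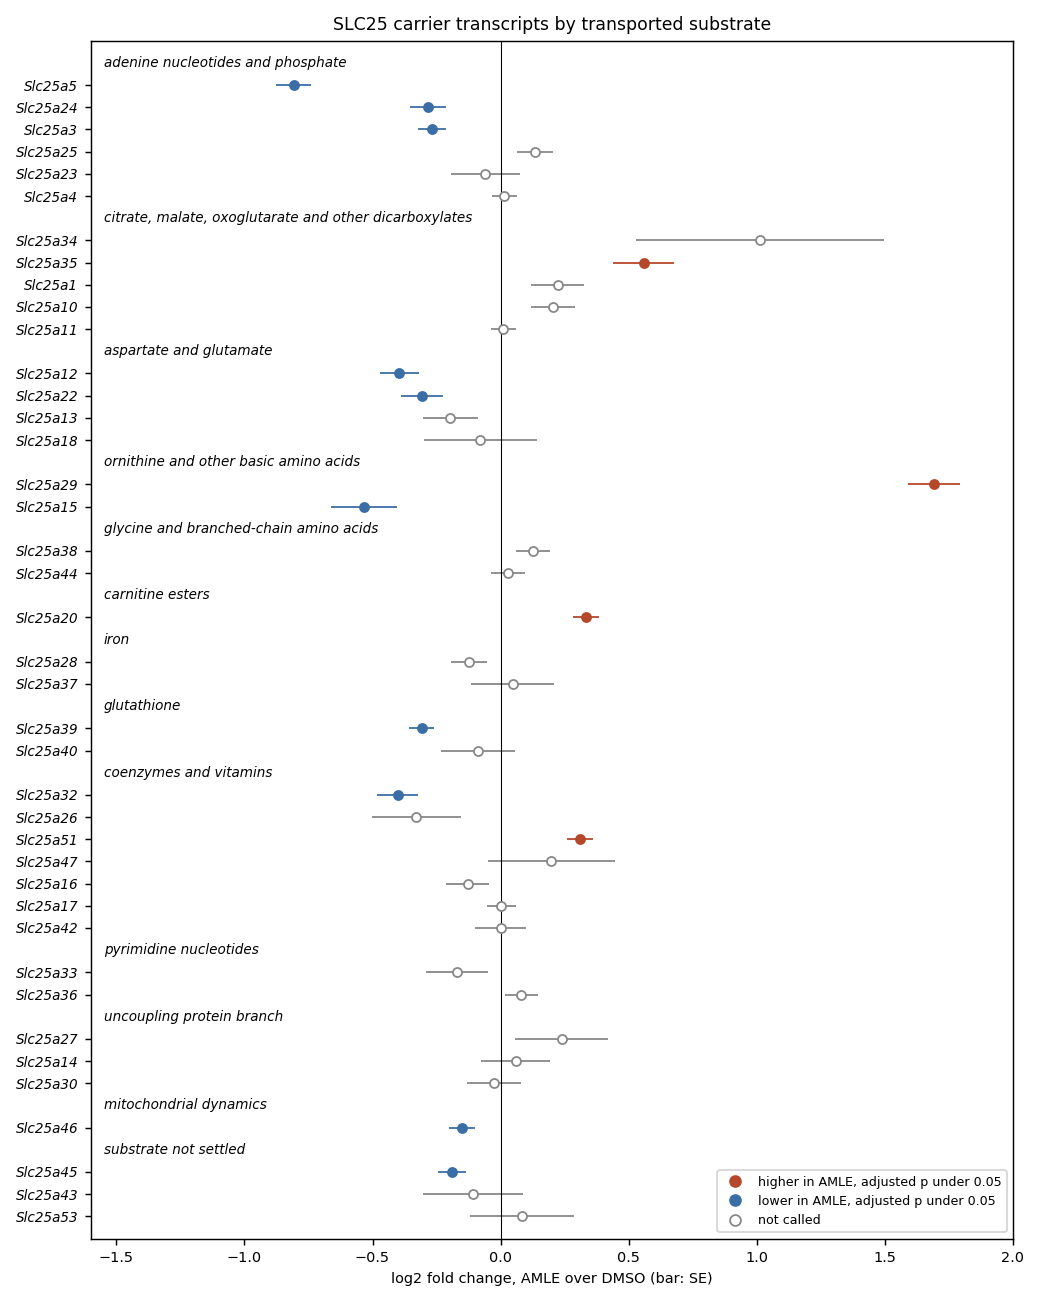
Log2 fold change (AMLE over DMSO, x axis) of 40 of the 41 carriers, grouped down the page by transported substrate; points are estimates from 3 libraries a group, bars are SE, and filled points passed an adjusted p under 0.05. Slc25a29 (1.69) lies far to the right and Slc25a5 (−0.81) farthest to the left, and carriers of the same substrate often differ.

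The summed level of the carriers was nevertheless lower after AMLE. The 41 genes together held 0.201%, 0.195% and 0.208% of all counts in the AMLE libraries, against 0.228%, 0.231% and 0.239% in the DMSO libraries. Their sum was 2024 ± 70.2 CPM in AMLE and 2319 ± 44.98 CPM in DMSO (SD, n = 3 each), with no overlap (two-sided exact permutation p = 0.1, the smallest that 3 against 3 libraries allow). Slc25a5 alone accounted for 14.9 ± 0.532% of the carriers' counts in AMLE and 22.8 ± 0.787% in DMSO. Without it the sum was 1722 ± 50.2 CPM in AMLE and 1791 ± 22.7 CPM in DMSO (SD, n = 3 each), where the highest AMLE library, at 1764.8 CPM, came just below the lowest DMSO library, at 1765.1 CPM (exact permutation p = 0.1).

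**Figure D2:**
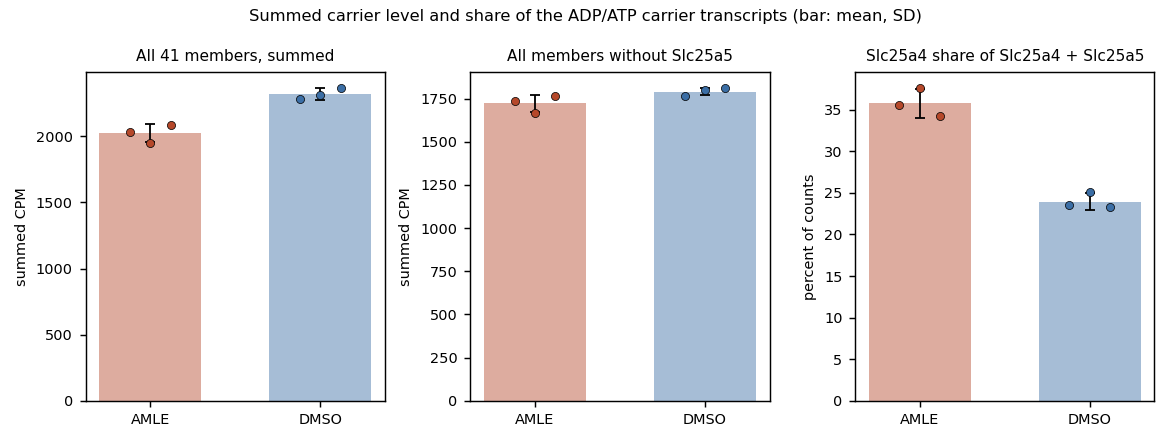
Summed CPM of the 41 carriers (left), the same without Slc25a5 (middle) and the percentage of Slc25a4 in the counts of Slc25a4 and Slc25a5 (right); points are the 3 libraries, bars the mean, whiskers the SD. The AMLE sum lies below the DMSO sum in the left panel and by much less in the middle one, and the Slc25a4 share is higher in AMLE (35.8%) than in DMSO (24.0%).

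Among the carriers of adenine nucleotides and phosphate, which supply the ATP synthase and export its product, 3 of 6 fell, against 25.6% of all genes tested, and none rose. Slc25a5 encodes the adenine nucleotide translocase that exchanges ADP for ATP in most proliferating tissues. It stood at 299, 283 and 324 CPM in the AMLE libraries, against 515, 511 and 560.1 CPM in the DMSO libraries. Every AMLE library lay below every DMSO library, with a wide gap. The level was 1.75-fold lower in AMLE (log2 fold change −0.81 ± 0.07, SE; edgeR adjusted p = 1.6e-04), and it was called in all 12 alternatives.

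Slc25a4 encodes the sister translocase, the main form of heart and skeletal muscle. It was at 165, 171 and 168 CPM in the AMLE libraries, against 158, 171 and 170.3 CPM in the DMSO libraries. The groups overlapped and the difference was small beside its error (0.01 ± 0.05; adjusted p = 0.84). Slc25a4 made up 35.5%, 37.7% and 34.2% of the counts of both genes in the AMLE libraries, against 23.5%, 25.1% and 23.3% in the DMSO libraries, a share that also depends on the lengths of the transcripts. The shares did not overlap, and the exact permutation p was again 0.1, the smallest possible. As Slc25a4 itself hardly differed, the share restates the fall of Slc25a5 and is not a separate result. A pseudogene of Slc25a5, Slc25a5-ps on chromosome 14, is annotated in RefSeq and has no row in the table, so reads shared with it could have been assigned to either place.

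Slc25a3 encodes the phosphate carrier, which brings in the phosphate that the ATP synthase joins to ADP. It was at 268, 246 and 271 CPM in the AMLE libraries, against 310.2, 309.7 and 325 CPM in the DMSO libraries. The groups did not overlap, and the level fell (−0.27 ± 0.06; adjusted p = 0.0062). The calcium-regulated ATP-Mg/phosphate carriers, which set the total adenine nucleotide content of the matrix, differed: Slc25a24 fell (−0.28 ± 0.07; adjusted p = 0.014), while Slc25a25 (0.13) and Slc25a23 (−0.06) were not called.

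The promoters of the translocase pair are shown because 1 of them fell and the other did not. Each runs 5′ to 3′ from 250 bases before to 50 after a RefSeq start (GRCm38.p6), at chrX:36795347-36795646 on the plus strand for Slc25a5 and chr8:46211013-46211312 on the minus strand for Slc25a4. Capitals mark the letters searched: the GC box GGGCGG, the CCAAT box CCAAT, the ETS letters CCGGAAG, the E-box CACGTG, the NRF1 letters GCATGCGC and the TATA box TATAAA, each on both strands, none of which contains another.
Slc25a5: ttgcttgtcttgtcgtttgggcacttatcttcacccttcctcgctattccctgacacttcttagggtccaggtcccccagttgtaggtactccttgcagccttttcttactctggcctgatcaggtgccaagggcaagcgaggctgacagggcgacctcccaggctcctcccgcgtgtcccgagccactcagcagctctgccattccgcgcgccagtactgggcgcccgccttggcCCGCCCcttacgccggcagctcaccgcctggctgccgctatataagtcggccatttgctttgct
Slc25a4: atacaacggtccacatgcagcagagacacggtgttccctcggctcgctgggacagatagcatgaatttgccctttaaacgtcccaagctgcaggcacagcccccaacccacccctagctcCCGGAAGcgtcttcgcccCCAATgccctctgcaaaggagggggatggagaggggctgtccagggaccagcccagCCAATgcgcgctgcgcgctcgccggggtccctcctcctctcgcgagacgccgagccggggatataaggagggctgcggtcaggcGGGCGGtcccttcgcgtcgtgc
The Slc25a5 promoter held a GC box and none of the other letters searched, and the Slc25a4 promoter held a GC box, a CCAAT box and the ETS letters. Both hold the letters tataag, which differ from TATAAA in the last base and so are unmarked. An ATAC peak covered the start of Slc25a5 and of Slc25a4 in all 4 libraries. The summits lay 4 to 23 bases after the Slc25a5 start, with a fold enrichment in the authors' lists of 7.34 and 9.25 in AMLE and 10.9 and 10.3 in DMSO. These folds describe peaks within a list and were not compared between libraries.

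Among the carriers of citrate and dicarboxylates, which feed cytosolic acetyl-CoA and carry reducing equivalents, 1 of 5 was called, higher, against 23% of all genes. Slc25a1 encodes the citrate carrier, the exit for the citrate that becomes cytosolic acetyl-CoA. It was at 86.8, 76.7 and 98.4 CPM in the AMLE libraries, against 70.4, 71.2 and 82.6 CPM in the DMSO libraries. AMLE replicate 3 was highest and the groups overlapped between 76.7 and 82.6 CPM. The difference was 0.22 ± 0.10 (adjusted p = 0.12) and passed with a replicate block, which pairs libraries of the same number (0.22; edgeR adjusted p = 0.0086), and without AMLE replicate 2 (0.31; 0.033).

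Slc25a11, the malate/oxoglutarate exchanger of the malate-aspartate shuttle, was at 138, 126 and 132 CPM in the AMLE libraries, against 129, 129.9 and 133 CPM in the DMSO libraries. The groups overlapped throughout (0.01 ± 0.05; adjusted p = 0.87). Slc25a10, the dicarboxylate carrier, was at 0.21 (adjusted p = 0.083) and was called without AMLE replicate 3 (0.26; 0.048) and without DMSO replicate 3 (0.27; 0.040). Slc25a35, placed by sequence beside the dicarboxylate carriers, was at 7.96, 9.74 and 7.76 CPM in the AMLE libraries, against 5.53, 5.83 and 5.96 CPM in the DMSO libraries. Its groups did not overlap and it rose (0.56 ± 0.12; adjusted p = 0.0071), though its span overlaps that of Rangrf, whose reads may have been counted with it. Slc25a34, its relative by sequence, had a larger difference with a wide error (1.01 ± 0.49; adjusted p = 0.12) at 0.350 to 1.31 CPM, and was called without AMLE replicate 3 (1.36; 0.017).

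Among the aspartate and glutamate carriers, which complete the malate-aspartate shuttle and bring glutamate to the matrix, 2 of 4 fell, against 25.6% of all genes, and none rose. Slc25a12, a calcium-regulated aspartate/glutamate carrier prominent in brain and muscle, was at 78.9, 75.1 and 72.9 CPM in the AMLE libraries, against 104, 106 and 88.7 CPM in the DMSO libraries. DMSO replicate 3 was lowest in its group but still above every AMLE library (−0.40 ± 0.08; adjusted p = 0.0045). Its liver-type sister Slc25a13 was at 24.2, 27.9 and 21.3 CPM in the AMLE libraries, against 25.8, 27.98 and 30.4 CPM in the DMSO libraries. The groups overlapped and it was not called (−0.20 ± 0.11; adjusted p = 0.17). Slc25a22, a glutamate carrier, fell (−0.31 ± 0.08; adjusted p = 0.018), a call lost without DMSO replicate 1 (0.052) and without DMSO replicate 2 (0.061), and Slc25a18, the other glutamate carrier, was at −0.08 and about 1 CPM.

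The carriers of basic amino acids held the largest called rise of the family with all libraries, and a fall. Slc25a29 encodes a carrier of arginine, lysine and other basic amino acids. It stood at 25.4, 29.7 and 26.02 CPM in the AMLE libraries, against 7.37, 8.85 and 8.92 CPM in the DMSO libraries. Every AMLE library was far above every DMSO library, 3.23-fold on average (1.69 ± 0.10; adjusted p = 6.0e-05), in all 12 alternatives. Slc25a15 encodes the ornithine/citrulline carrier of the urea cycle. It was at 8.08, 7.09 and 9.90 CPM in the AMLE libraries, against 11.7, 11.7 and 12.8 CPM in the DMSO libraries. AMLE replicate 3 came nearest to DMSO without overlap, and the level fell (−0.53 ± 0.13; adjusted p = 0.012), again in all 12 alternatives.

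The Slc25a29 promoter is shown as that of the carrier that rose most. It lies at chr12:108835827-108836126 on the minus strand of GRCm38.p6, with the same motifs in capitals, and held a GC box and a CCAAT box.
Slc25a29: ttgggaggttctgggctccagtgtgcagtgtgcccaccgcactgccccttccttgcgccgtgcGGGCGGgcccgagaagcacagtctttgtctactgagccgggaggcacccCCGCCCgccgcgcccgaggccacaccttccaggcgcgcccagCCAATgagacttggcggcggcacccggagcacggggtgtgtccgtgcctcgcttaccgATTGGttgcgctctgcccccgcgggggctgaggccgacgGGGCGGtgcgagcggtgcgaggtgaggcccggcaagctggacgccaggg
An ATAC peak covered it in all 4 libraries, with summits 63 to 96 bases before the start and a fold enrichment in the authors' lists of 11.8 and 12.4 in AMLE and 16.9 and 15.1 in DMSO. Its neighbour Slc25a47, 13957 bases away on the same chromosome, had no promoter peak in any library and an RNA difference that was not called (0.20 ± 0.25).

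**Figure D3:**
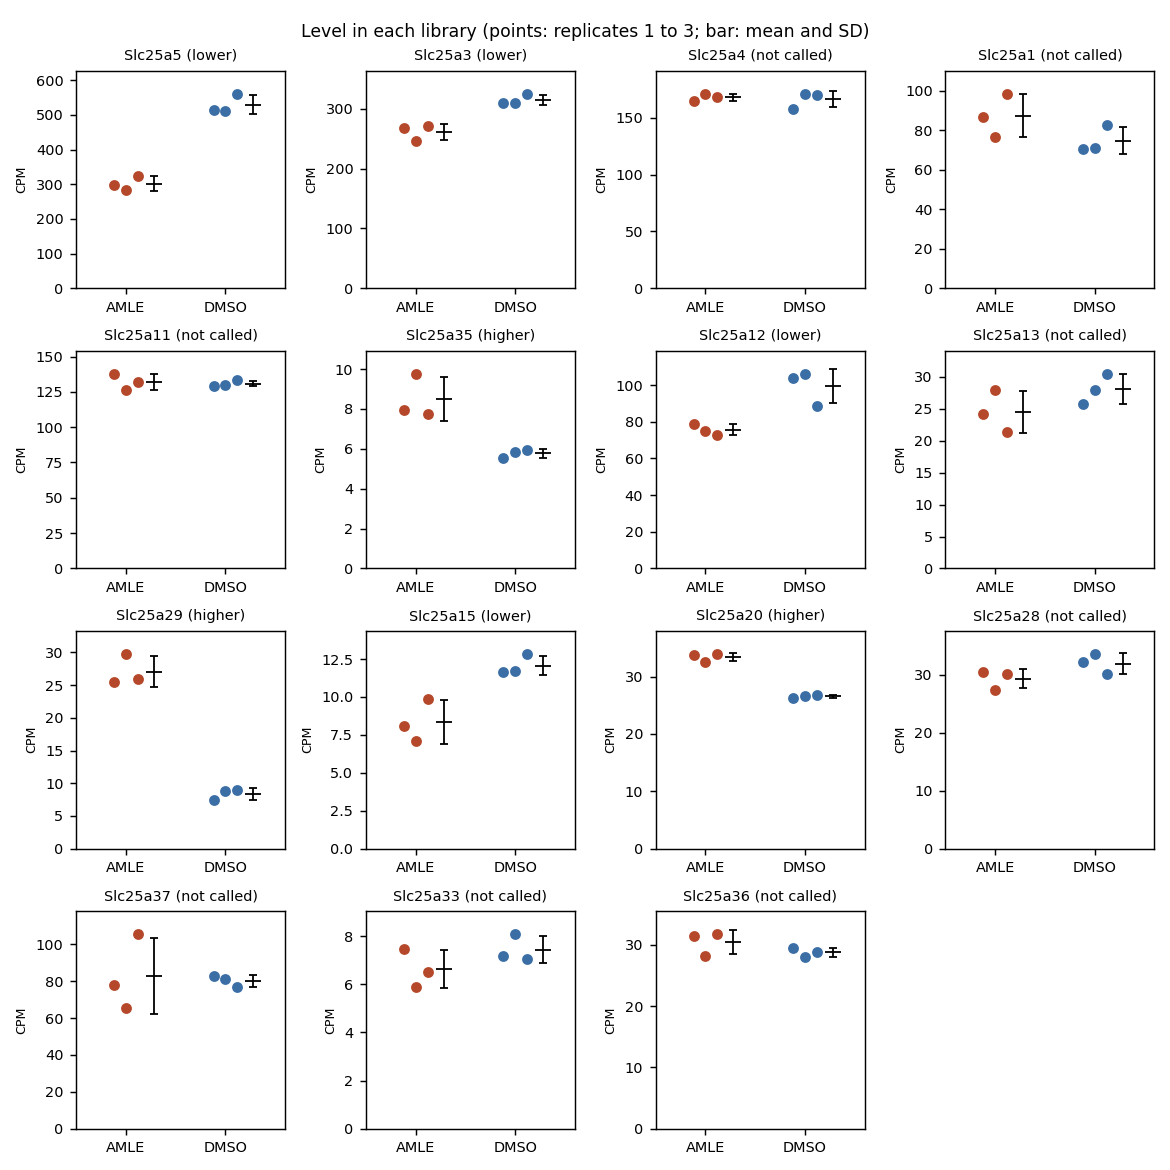
CPM (y axis, from 0) of 15 carriers in each library, AMLE left and DMSO right; coloured points are replicates 1 to 3 from left to right, and black bars give the mean and SD. The groups separate clearly for Slc25a29, Slc25a5 and Slc25a20 and overlap for Slc25a4, Slc25a11 and Slc25a37.

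Slc25a20 encodes the carnitine/acylcarnitine carrier, the step by which fatty acids enter the matrix for oxidation. It was at 33.7, 32.6 and 33.9 CPM in the AMLE libraries, against 26.3, 26.6 and 26.7 CPM in the DMSO libraries. The replicates of each group lay close together and the groups did not overlap, so this modest rise (0.33 ± 0.05; adjusted p = 0.0016) was well separated from its error. The glycine carrier Slc25a38, which serves haem synthesis, was at 0.13 and the branched-chain amino acid carrier Slc25a44 at 0.03, and neither was called.

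Neither mitoferrin, the carriers that bring iron to haem and iron-sulfur cluster assembly, was called. Slc25a28, mitoferrin 2 of most tissues, was at 30.5, 27.4 and 30.1 CPM in the AMLE libraries, against 32.2, 33.5 and 30.1 CPM in the DMSO libraries. The groups overlapped at their edge (−0.12 ± 0.07; adjusted p = 0.17). Slc25a37, mitoferrin 1 of developing red cells, was at 78.0, 65.2 and 105 CPM in the AMLE libraries, against 82.5, 81.1 and 76.7 CPM in the DMSO libraries. AMLE replicate 3 stood above all other libraries and AMLE replicate 2 below them, so that the estimate was 0.05 ± 0.16 with all libraries and −0.15 without AMLE replicate 3. The glutathione carrier Slc25a39 fell (−0.31 ± 0.05; adjusted p = 0.0022) and its relative Slc25a40 was at −0.09 and not called.

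Of the carriers of coenzymes and vitamins, 2 of 8 (25%) were higher, near the 23% of all genes tested, and 1 (12.5%) was lower, against 25.6%. Slc25a51, the NAD carrier, rose (0.31 ± 0.05; adjusted p = 0.0023). Slc25a32, linked to folate and FAD transport, fell (−0.40 ± 0.08; 0.0054). The S-adenosylmethionine carrier Slc25a26 was at −0.33 (adjusted p = 0.15) and was called lower only without DMSO replicate 1 (−0.50; 0.024). Slc25a16 (−0.13) and Slc25a42 (0.00), linked to coenzyme A, and the peroxisomal carrier Slc25a17 (0.00) were not called.

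The pyrimidine nucleotide carriers, which supply mitochondrial DNA and RNA synthesis, were not called. Slc25a33 was at 7.46, 5.89 and 6.53 CPM in the AMLE libraries, against 7.18, 8.08 and 7.06 CPM in the DMSO libraries, with overlapping groups (−0.17 ± 0.12; adjusted p = 0.28). Slc25a36 was at 31.5, 28.2 and 31.7 CPM in the AMLE libraries, against 29.4, 27.98 and 28.9 CPM in the DMSO libraries, also with overlap (0.08 ± 0.07; adjusted p = 0.33). The uncoupling protein branch members Slc25a14, Slc25a27 and Slc25a30 lay between −0.02 and 0.24, and none was called. Slc25a46, an outer membrane protein of mitochondrial dynamics, was called lower by a small margin (−0.15 ± 0.05; adjusted p = 0.042) and in 3 of 12 alternatives. Without any 1 library other than AMLE replicate 3 its adjusted p was 0.063 to 0.13. Of the carriers without a settled substrate, Slc25a45 fell (−0.19 ± 0.06; 0.025; 0.070 to 0.091 without AMLE replicate 1 or 2 or DMSO replicate 1 or 2), and Slc25a43 (−0.11) and Slc25a53 (0.08) were not called.

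Genes that work beside the carriers were counted from lists by function. For every substrate group or list given as having no gene that rose, or none called, edgeR gave none at an unadjusted p below 0.05 either, nor did DESeq2 or limma-voom at an adjusted one. These counts are to be read beside all 13075 genes tested, of which 23% were called higher and 25.6% lower. The lists are short and none was tested against that background. The channels of the outer membrane, Vdac1, Vdac2 and Vdac3, all fell, by a median of −0.22 (Vdac2 was at an adjusted p of 0.0501 without DMSO replicate 2). The import route for carriers fell in 8 of 12 members, against 25.6% of all genes, and rose in none, with a median of −0.23 against −0.01 over all genes. Timm8a1 (−1.54) and Timm9 (−0.66), small chaperones of the intermembrane space, and Tomm40 (−0.67), the entry pore of the outer membrane, fell most, and 5 members fell without AMLE replicate 2 and without DMSO replicate 2. Inner membrane carriers outside the family fell in 4 of 10 members, with Sfxn1, the serine carrier (−0.56), and Mpc2 of the pyruvate carrier (−0.50) lowest, and 1 rose, a call absent without DMSO replicate 1 or 2 (with a replicate block 6 fell and 2 rose, and 6 fell without AMLE replicate 3). The uncoupling protein Ucp2 (−0.54) and Mtch2 (−0.35), family members with another symbol, fell, and Mtch1 was not called. The calcium uniporter genes fell in 2 of 5 and rose in none. With DESeq2, 1 of 5 fell, as it did without AMLE replicate 1 or 3 or DMSO replicate 1 or 2, and 1 rose without AMLE replicate 3.

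Partner enzymes of the substrate groups moved in both directions. Beside Slc25a29, Arg1, the cytosolic arginase, rose by 6.03 ± 1.10 (adjusted p = 0.0042; 0.13 with limma-voom), from low counts and with AMLE replicate 3 at 11.5 CPM against 143 and 141 CPM in the other AMLE libraries. In the ornithine and urea cycle list 3 of 5 rose and 1 fell. The rises numbered 2 with limma-voom and without AMLE replicate 1. Odc1 made it 2 that fell with DESeq2, with a replicate block, when DMSO replicate 3 was omitted and when replicate 3 of both groups was. Beside Slc25a1 and Slc25a11, Me1, malic enzyme, rose by 0.83 and Fasn, the fatty acid synthase, fell by 0.53. In a list of genes around cytosolic citrate and fatty acid synthesis, 3 of 7 rose, namely Me1, Acss2 and Aco1. The 2 that fell were Fasn and Acaca (Fasn alone without AMLE replicate 1). Acly, which splits citrate, was at 0.00. Beside Slc25a12, the shuttle enzymes Got2 (−0.59) and Mdh1 (−0.28) fell and Got1 and Mdh2 were not called. Beside Slc25a20, which rose, 2 of 8 genes of the carnitine shuttle and of fatty acid oxidation fell, Cpt1a (−0.42) and Acadvl (−0.38). The share was near the 25.6% of all genes, and 4 fell with a replicate block.

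Beside the mitoferrins, Iscu, the iron-sulfur scaffold (0.85), and Alas1, the first enzyme of haem synthesis (0.70), rose, and 2 of 9 fell, shares near those of all genes. The weaker of the 2 calls for a fall held in 1 of 12 alternatives, the replicate block, where 3 fell. Nfs1 was called in its place without AMLE replicate 3 and with replicate 3 of both groups omitted, and 1 fell under each of the others. Beside Slc25a32 and Slc25a26, Shmt2 (−1.37) and Mthfd1l (−0.92) of mitochondrial one-carbon metabolism fell, 3 of 8 in all. Gldc of glycine cleavage rose (1.99) from under 1 CPM, among 2 of 8 that rose, near the background of 23% (1 with DESeq2, with no low-count filter, with replicate 3 of both groups omitted, and on omitting any single library except AMLE replicate 3). Beside Slc25a33 and Slc25a36, Ak4, an adenylate kinase, rose (1.40) among 2 of 8 nucleotide partners, again near 23% (1 with no low-count filter and on omitting any single library except AMLE replicate 3). Tfam, which packs mitochondrial DNA, fell (−0.43) among 3, and that count was 1 without AMLE replicate 2 and without DMSO replicate 2. Beside Slc25a44, 4 of 6 branched-chain amino acid genes fell, led by Bcat1 (−2.48), which was under 4 CPM in all libraries.

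Of the glutamine and glutamate genes, 2 of 3 rose (1 without DMSO replicate 1 or 2) and 1 fell. The fall was called in 3 of 12 alternatives. It was lost when any 1 library or both libraries numbered 3 were left out, with DESeq2, and with DESeq2 size factors in edgeR. Of the regulators of mitochondrial genes, 3 of 7 fell and none rose: Ppargc1b, a coactivator (−0.80; adjusted p = 0.057 without AMLE replicate 1), Myc (−0.71; up to 0.086 with no low-count filter or without DMSO replicate 1 or 2) and Gabpa (−0.34). Without both libraries numbered 3, 5 of them fell.

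**Figure D4:**
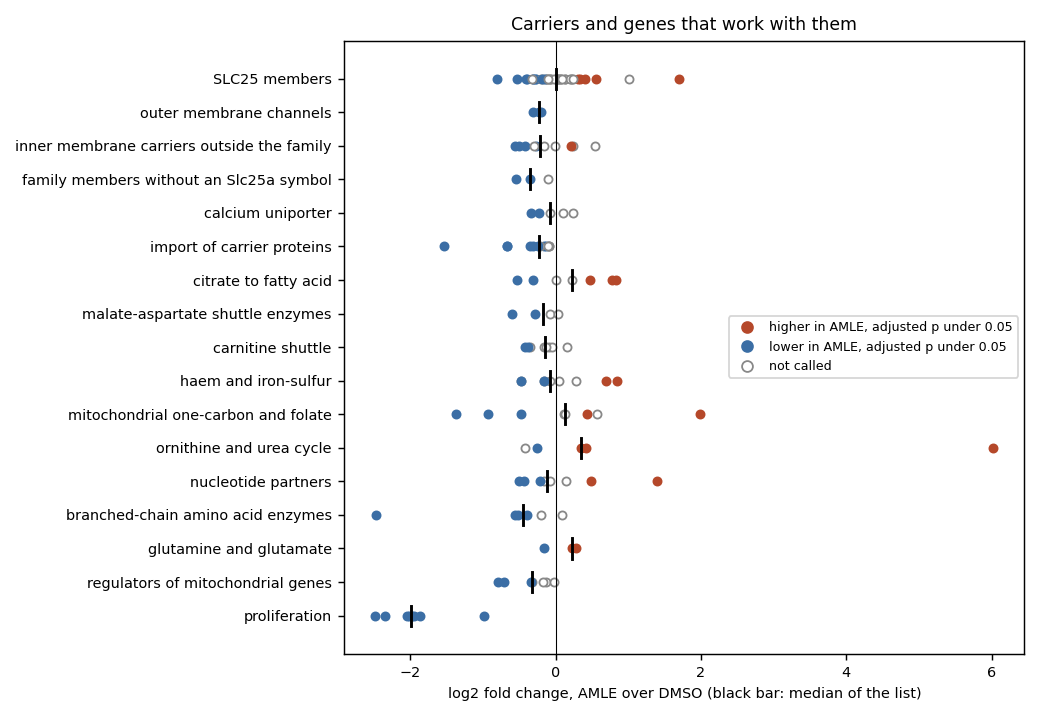
Log2 fold change (AMLE over DMSO) of each carrier and of each tested gene in the partner lists, one list per row; filled points passed an adjusted p under 0.05 and the black bar is the list's median. The carriers spread on both sides of 0, while the import, outer membrane and proliferation rows lie to the left.

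The chromatin lists covered the promoters of the same genes. Of the 41 carriers 32 had a RefSeq start in the promoter table, and 23 of them (71.9%) had a peak within 1000 bases of a start in both AMLE libraries and 26 (81.2%) in both DMSO libraries. Over 9978 tested genes with such a start the shares were 69.6% and 72.6%. The carriers' share in AMLE lay near this background and their share in DMSO lay above it, which was not tested. All 23 had a peak in all 4 libraries. Slc25a53 had one in both DMSO libraries and in neither AMLE library, Slc25a24 lacked it in AMLE replicate 1 and Slc25a14 in AMLE replicate 2, while Slc25a43 had one in 1 library of each group. The Slc25a43 peaks were different regions, with the summit 1421 bases after the start in AMLE replicate 1 and 55 bases after it in DMSO replicate 2. The lists held 15805 and 15597 distinct peaks in AMLE and 18460 and 19225 in DMSO, so fewer peaks were listed in AMLE in all, and no test was made with 2 libraries a group. Slc25a1, Slc25a18, Slc25a25, Slc25a34 and Slc25a47 had no listed peak in any library.

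**Figure D5:**
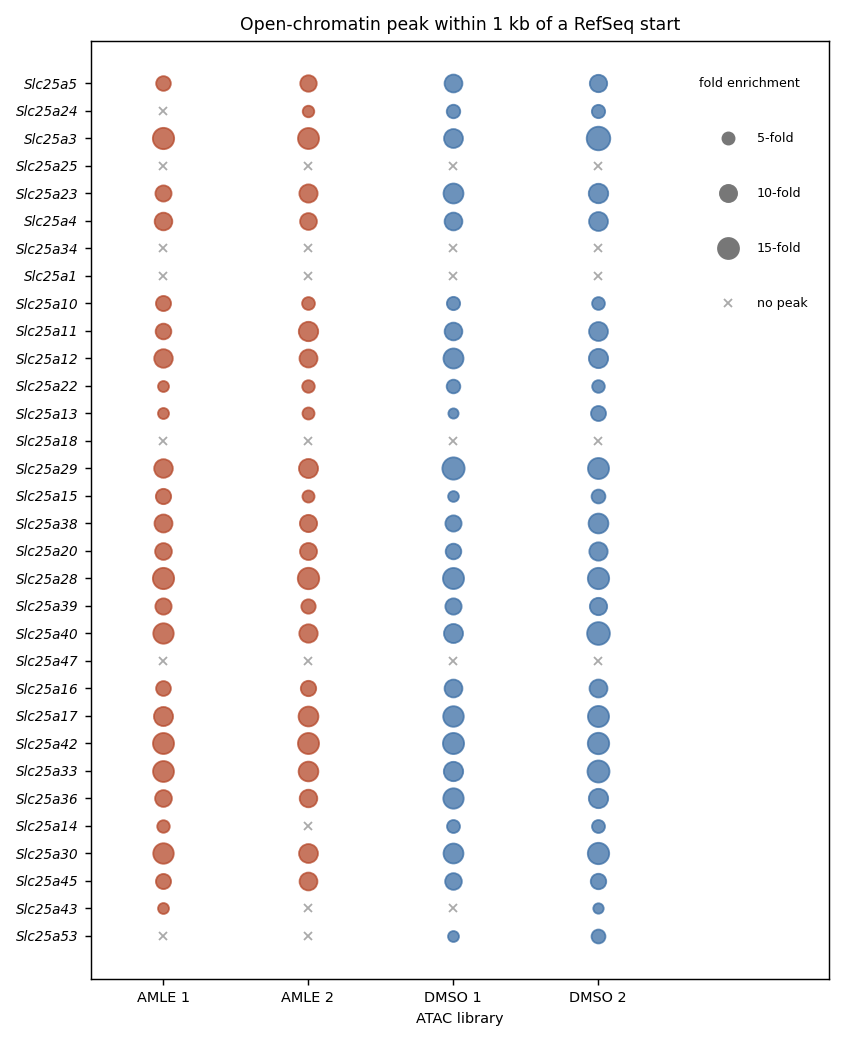
Peaks within 1 kb of a RefSeq start for 32 carriers (rows) in the 4 ATAC libraries (columns, AMLE left); the area of a point is the fold enrichment in the authors' list and a cross marks no peak. Most rows hold 4 points, and Slc25a53 holds points in the DMSO columns only.

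The 32 carriers had 41 promoter entries, since several have more than 1 start. Entries of the same gene can overlap, as for Slc25a14 and Slc25a23, so the same letters can be counted more than once. By gene, the GC box stood in 28 of 32 carriers, the CCAAT box in 18 and the E-box and the ETS letters in 6 each. The GC box stood in 36 of these promoters (87.8%), against 60.6% of the promoters of tested genes and 35.7% of all 32851 promoters of the same length. The CCAAT box stood in 21 (51.2%, against 37.4% and 37.4%), the E-box in 7 (17.1%, against 9.73% and 7.15%) and the ETS letters in 6 (14.6%, against 16.8% and 8.86%). The TATA box stood in 1 (2.44%, against 7.23% and 13.6%) and the NRF1 letters in none (against 5.02% and 2.71%). With 1 promoter taken per gene, the median GC content was 60.7% for the 32 carriers. It was also 60.7% for the 9978 tested genes with a promoter. The letters are a description of these windows and not of binding.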

How the data were processed

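The authors deposited raw read counts per gene symbol for 6 RNA libraries (stranded poly(A) kit, per the labels' protocols) and, for 4 ATAC libraries, a peak list each with a fold enrichment (a ratio) and a −log10 q, which are the authors' values and served only to describe or filter peaks within a list. The submitters' processing notes name STAR 2.7.11b, Bowtie2 2.4.4, MACS3 3.0.0a7 and build mm10. Which tool counted reads, and with what strand setting, is not given in the sources used here. Overlapping or near-identical genes could therefore share reads, and 12 of the 41 carriers overlap another gene's span. Counts were tested as deposited with edgeR 4.0.16 (R 4.3.3): TMM factors, low-count filter (minimum count 10), robust quasi-likelihood F test, two-sided, Benjamini-Hochberg over 13075 genes, called below 0.05. CPM are the deposited counts scaled to the effective library total. Each SE was obtained by dividing the size of the log2 fold change by the root of its F statistic and is approximate. The test was checked on simulated data. Alternatives were DESeq2 1.42.0, limma-voom (limma 3.58.1), DESeq2 size factors in edgeR, no low-count filter, a replicate block, leaving out each library, and leaving out both libraries numbered 3. Libraries with the same number deviated together from their group means (correlations over genes of 0.29, 0.28 and 0.43), and each library correlated best with its own number. The other pairs ran from −0.31 to 0.11, of which 2 (0.11 each) also passed the 0.1 taken to show pairing. The main test and the permutation tests nevertheless took the libraries as unpaired. Only the replicate block used a pairing by number, and the labels do not say what a number marks. Values in every library were given by rule for called carriers with an absolute log2 fold change of at least 0.5 and for 12 carriers fixed by role. In partner lists log2 fold changes were given for at most 3 called genes. Acly, Acaca, Aco1, Acss2, Cpox, Idh1, Slc25a18, Got1, Mdh2, Mtch1, Nfs1, Odc1, Tfam and the single cell type markers were named after their values were seen. The carriers, roles and partner lists were chosen with earlier results of these data known, and counts for partner lists under the alternatives were added after seeing the data. Promoters and positions come from RefSeq GRCm38.p6, the same build as mm10. Peaks were matched to a start with at least 1 base of overlap. Some genes counted in the totals are not reported here by name.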

Additional observations from a re-analysis of the deposited data

How the results depend on the processing

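Over the 12 alternatives 5 to 8 carriers were higher and 7 to 10 lower (5 to 7 and 7 to 10 when 1 library was left out), and 8 were higher without both libraries numbered 3. With a replicate block 6 were higher and 10 lower. The block added Slc25a1 (0.22) and changed no other carrier's call. Among the carriers named, in all 12 alternatives Slc25a3, Slc25a5, Slc25a12, Slc25a15, Slc25a20, Slc25a24, Slc25a29, Slc25a32, Slc25a35, Slc25a39 and Slc25a51 were called. Changes of sign occurred only for carriers that were not called. Leaving out 1 library gave log2 values of −0.14 to 0.030 for Slc25a23, −0.025 to 0.039 for Slc25a4, −0.0088 to 0.047 for Slc25a11, −0.20 to 0.056 for Slc25a18, −0.0082 to 0.073 for Slc25a44, −0.15 to 0.20 for Slc25a37, −0.17 to 0.062 for Slc25a40, −0.030 to 0.034 for Slc25a17, −0.040 to 0.041 for Slc25a42, −0.0059 to 0.13 for Slc25a14, −0.13 to 0.073 for Slc25a30 and −0.27 to 0.075 for Slc25a43. Without both libraries numbered 3, Slc25a37 was at −0.18 and Slc25a30 at 0.11, and with no low-count filter Slc25a17 was at −0.0051 and Slc25a42 at −0.0077. Carriers with a peak in the window around a start in both libraries numbered 21 to 25 for AMLE and 23 to 27 for DMSO. These ranges cover other windows, a stricter q and the loss of 1 library. The depth limits Slc25a34, Slc25a18, Slc25a27, Slc25a47 and Slc25a53, all near 1 or 2 CPM.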
